A study of Mus musculus with 8 samples.

Results

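Expression of 9 genes of the interleukin 23 (IL-23) and interleukin 17 (IL-17) axis was compared in the epidermis of imiquimod-treated mice. They were chosen by symbol, as cytokines, receptors and type 17 lymphocyte genes, and all 9 were among the 23171 genes of the deposited count table. The cytokine genes are Il17a, Il17f, Il17c, Il23a and Il12b, and the receptor genes are Il17ra, Il17rc, Il23r and Ccr6. Libraries came from 2 groups of 4 mice. The cKO group carried a knockout of Hnrnpu, stated to be specific to the epidermis, and the control group is labelled WT. All mice of both groups received imiquimod, an agonist of Toll-like receptors that is applied to mouse skin to model psoriasis, so there is no untreated level to set these values against. The promoter that drives the deletion, the imiquimod dose and time, and the age of the mice were not given in these sources. The labels put all 8 libraries in one batch and do not say whether the genotypes were littermates, so p-values measure only the spread between these samples.

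IL-23 is a heterodimer of the p19 subunit, encoded by Il23a, and the p40 subunit, encoded by Il12b, which IL-12 also contains. Myeloid cells are its best known source, and it acts on lymphocytes that carry the IL-23 receptor. Such type 17 lymphocytes, in mouse skin largely gamma delta T cells, often carry the chemokine receptor CCR6 and secrete IL-17A and IL-17F. Both cytokines signal to keratinocytes through a receptor of IL-17RA and IL-17RC, and keratinocytes answer with neutrophil-attracting chemokines and antimicrobial proteins. IL-17C differs in that keratinocytes and other epithelial cells make it, and it acts through IL-17RA with IL-17RE.

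The libraries held 37158621 to 38865722 counts. Hnrnpu stood at 190, 373, 354 and 312 CPM (counts scaled to a common library size with TMM factors) in cKO replicates 1 to 4 and at 424 to 454 CPM in WT, and did not pass the genome-wide test (edgeR adjusted p = 0.191). On the second principal component, cKO replicates 1 and 4 (35.8 and 54.5) lay apart from cKO replicates 2 and 3 (-33.0 and -25.2), with WT from -12.9 to 1.69. The samples are labelled keratinocytes, and 10 keratinocyte markers such as Krt10 and Krt1 summed to 62609 to 92733 CPM in the libraries. The 7 T cell markers summed to between 13.6 and 65.1 CPM.

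The promoters of Il17a, Il17f and Il23r are shown because Il17a and Il17f varied together over the libraries and all 3 genes belong to the type 17 lymphocyte programme. They are the 250 bases before the transcription start in RefSeq (GRCm38.p6), read 5′ to 3′ on the gene's strand. Capitals mark the half-site AGGTCA or its reverse complement TGACCT, the letters bound by the ROR family of nuclear receptors that directs type 17 cells, and the TATA box TATAAA. Both strands were searched, and none of the marked matches overlap.
Il17a, chr1:20730655-20730904, plus strand: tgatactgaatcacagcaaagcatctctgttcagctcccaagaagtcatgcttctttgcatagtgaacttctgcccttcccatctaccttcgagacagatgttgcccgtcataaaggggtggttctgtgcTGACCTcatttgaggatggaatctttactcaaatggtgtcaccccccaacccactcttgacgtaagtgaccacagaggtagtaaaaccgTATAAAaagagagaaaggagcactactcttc
Il17f, chr1:20784271-20784520, minus strand: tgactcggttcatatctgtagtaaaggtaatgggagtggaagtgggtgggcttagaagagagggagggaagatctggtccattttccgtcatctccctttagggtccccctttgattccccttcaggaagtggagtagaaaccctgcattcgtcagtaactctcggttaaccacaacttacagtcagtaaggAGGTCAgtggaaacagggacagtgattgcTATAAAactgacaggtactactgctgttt
Il23r, chr6:67491856-67492105, minus strand: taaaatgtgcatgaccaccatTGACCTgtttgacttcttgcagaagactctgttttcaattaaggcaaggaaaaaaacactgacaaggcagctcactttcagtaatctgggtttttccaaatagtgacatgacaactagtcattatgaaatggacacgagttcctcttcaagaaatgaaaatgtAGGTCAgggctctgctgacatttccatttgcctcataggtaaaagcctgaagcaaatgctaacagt
Il17a held the half-site 120 to 115 bases before its start and Il17f 58 to 53 bases before, and their TATA boxes began 31 and 29 bases before the start. Il23r held 2 half-sites, at 229 to 224 and 66 to 61 bases, and no TATAAA. Of 32851 RefSeq windows of this length, 14.0% held the half-site and 12.4% the TATA box on either strand, so a match is a description of these letters and not a measured binding site. The STAT motif TTCNNNGAA and the NF-kB consensus, held by 7.02% and 3.90% of the windows, had no match in the 3 promoters shown. Of the 9 members 7 had a promoter entry, and Il23a and Il17ra did not. Among the entries not shown, those of Ccr6 held a half-site 44 to 39 bases before the start, STAT matches and NF-kB matches. The entries of Il17c, Il17rc and Il12b held no half-site.

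None of the 7 members that could be tested was called. The 7 are those with enough counts for the low-count filter, and the test was edgeR's quasi-likelihood test with Benjamini-Hochberg adjustment over 14004 genes, at an adjusted p below 0.05. Of all tested genes 1.32% were called, 94 (0.671%) higher and 91 (0.65%) lower in cKO. At an unadjusted p below 0.05 the members numbered 0 of 7, where 18.6% of all tested genes lay, and DESeq2 (8.63% of all genes called) and limma-voom (1.21%) also called 0. Of these 7 members 6 had a negative and 1 a positive log2 fold change of cKO over WT, with a median of -0.77 against 0.01 for all tested genes. Of all tested genes 48.1% were negative. Il17c and Il12b had too few libraries with enough counts to pass the filter. Their log2 fold changes, given below, come only from a fit without the filter and were positive.

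Scaled for gene length, both genes of the IL-17A receptor were the most abundant members by their mean. Mean FPKM (fragments scaled for gene length and library depth) over the 8 libraries was 60.2 for Il17rc, 5.84 for Il17ra, 2.78 for Il17a, 2.04 for Il17f, 0.874 for Il17c, 0.511 for Il23a, 0.267 for Ccr6, 0.255 for Il23r and 0.0528 for Il12b. Il17rc exceeded Il17ra in 8 of 8 libraries, by 8.68 to 12.8 times. Il17ra exceeded Il17a in 7 of 8. In WT replicate 3 Il17a (13.3 FPKM) and Il17f (6.61 FPKM) stood above Il17ra (6.57 FPKM). Below the receptor pair the order was less fixed. Il17a exceeded Il17f in 4 of 8 libraries, Ccr6 exceeded Il23r in 4 of 8 and Il17c exceeded Il23a in 2 of 8, so these neighbours did not differ beyond their spread.

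**Figure D1:**
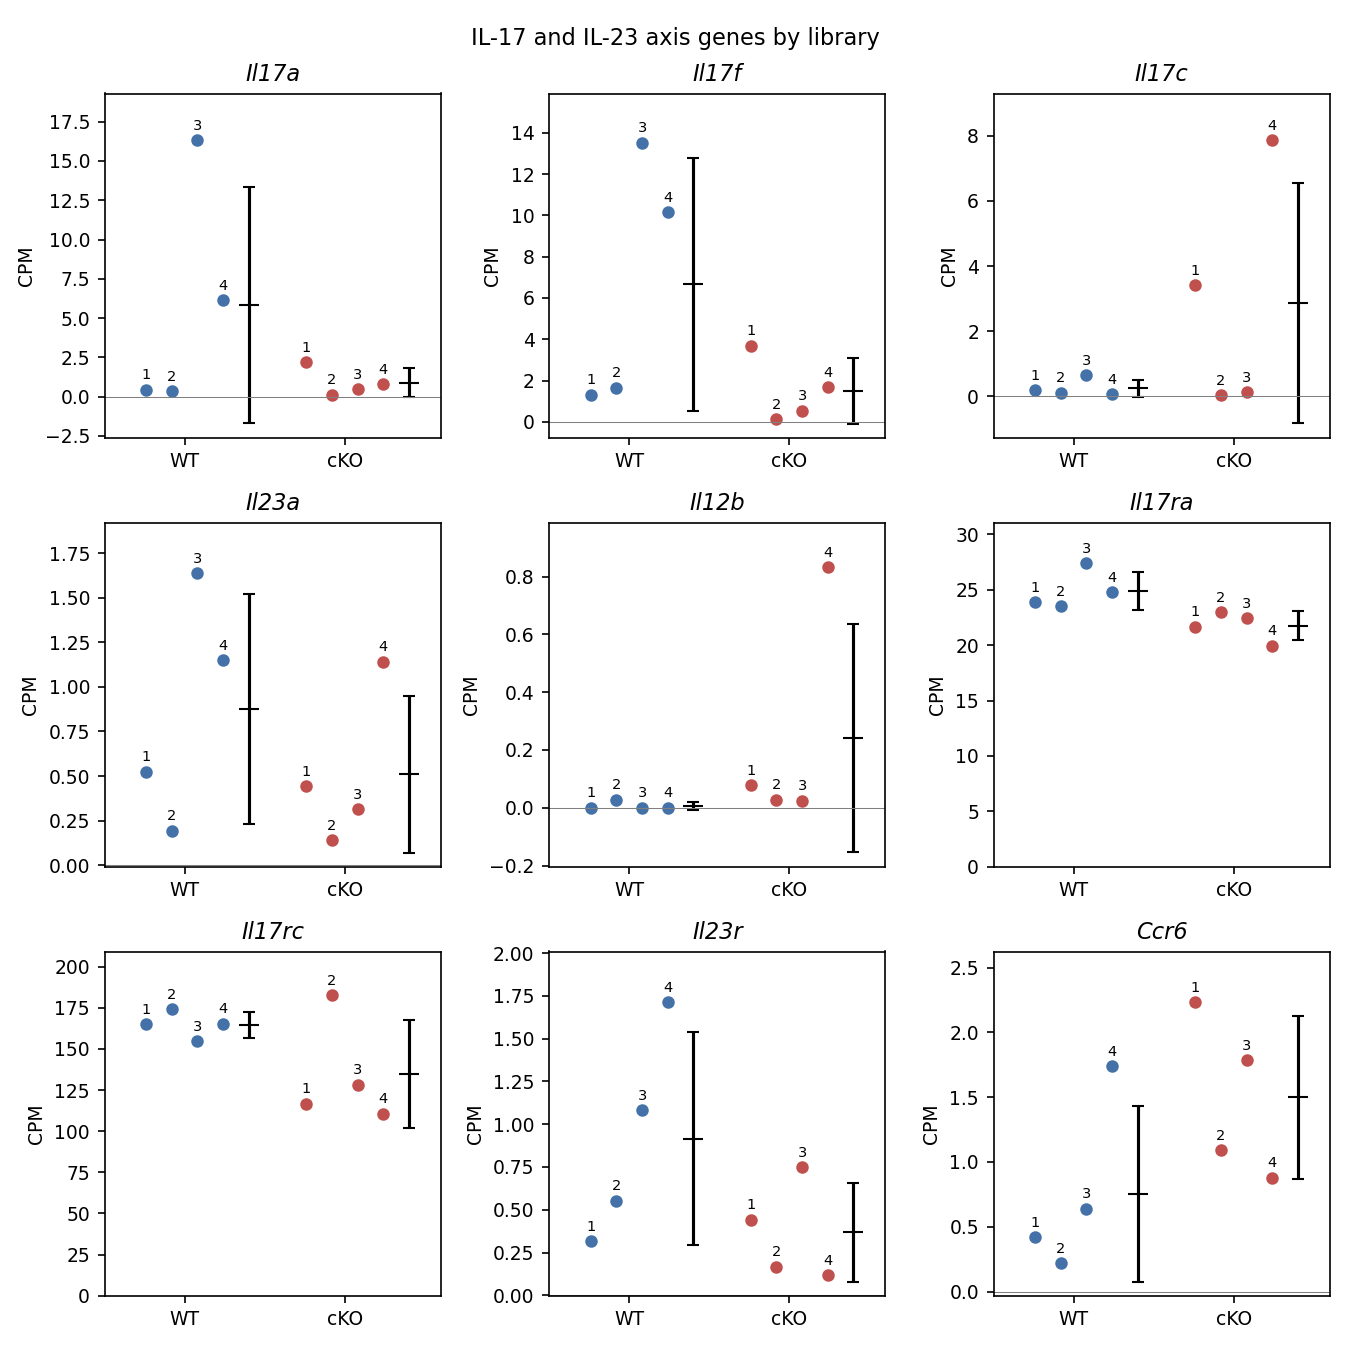
Level in CPM (TMM-scaled) of the 9 members, with WT libraries in blue and cKO libraries in red, numbered by replicate, and the mean with SD (n = 4) as a black bar beside each group. Il17a and Il17f were high in WT replicates 3 and 4, Il17c in cKO replicates 1 and 4, and Il17ra was the member whose groups did not overlap.

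The type 17 cytokines were high in 2 WT libraries and low elsewhere. Il17a stood at 0.445, 0.332, 16.3 and 6.13 CPM in WT replicates 1 to 4 and at 2.18, 0.112, 0.458 and 0.808 CPM in cKO replicates 1 to 4. WT replicates 3 and 4 were above every cKO library, while WT replicates 1 and 2 lay inside the cKO range. The means were 5.81 ± 7.51 CPM in WT and 0.890 ± 0.908 CPM in cKO (SD, n = 4 each). The fitted log2 fold change was -2.70 ± 1.22 (SE; edgeR adjusted p = 0.279). Its 95% confidence interval reached from 0.0229 to 1.04 times the WT level. Without WT replicate 3 the log2 fold change was -1.37.

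Il17f, which forms homodimers and heterodimers with IL-17A, followed the same libraries. It stood at 1.31, 1.66, 13.5 and 10.2 CPM in WT replicates 1 to 4 and at 3.69, 0.140, 0.530 and 1.66 CPM in cKO replicates 1 to 4. Again WT replicates 3 and 4 stood above all others, cKO replicate 1 came next and cKO replicate 2 was lowest. The log2 fold change was -2.14 ± 0.99 (SE; edgeR adjusted p = 0.285), with an interval of 0.0488 to 1.05 times the WT level. It was -3.06 with cKO replicate 1 left out and -1.54 with WT replicate 3 left out. Per length, Il17a was 2.02 times Il17f in WT replicate 3, 1.01 times in WT replicate 4 and 0.334 times in WT replicate 2. The range within WT thus spanned the cKO range of 0.812 to 1.44.

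Il17c, the IL-17 cytokine of epithelial cells, had another pattern. It stood at 3.40 and 7.87 CPM in cKO replicates 1 and 4, from 131 and 331 counts. In cKO replicates 2 and 3 it stood at 0.0280 and 0.121 CPM, from 1 and 5 counts. In WT replicates 1 to 4 it stood at 0.183, 0.111, 0.638 and 0.0535 CPM. The 2 cKO libraries thus exceeded every WT library and 1 lay below all of them. The cKO mean of 2.86 ± 3.69 CPM and the WT mean of 0.246 ± 0.267 CPM (SD, n = 4 each) differed by less than the spread within cKO. The two-sided exact permutation test on log2(CPM + 0.1) gave p = 0.371, where 0.0286 is the smallest that 4 against 4 allows. With the count filter removed, edgeR's log2 fold change for Il17c was 3.52 ± 1.25 (SE), with an adjusted p of 0.210. These 2 cKO libraries are the ones that lay apart on the second principal component, and the part of that split in this result was not tested.

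Il23a, the subunit that is specific to IL-23, was low throughout. It stood at 0.524, 0.193, 1.64 and 1.15 CPM in WT replicates 1 to 4 and at 0.442, 0.140, 0.313 and 1.14 CPM in cKO replicates 1 to 4. WT replicates 3 and 4 and cKO replicate 4 were the high libraries, and the groups overlapped. The log2 fold change was -0.77 ± 0.73 (SE; edgeR adjusted p = 0.617), and ranged from -1.53 (cKO replicate 4 left out) to -0.28 (WT replicate 3 left out).

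Il12b, the p40 subunit shared with IL-12, was near the limit of detection. It had 0, 1, 0 and 0 counts in WT replicates 1 to 4 and 3, 1, 1 and 35 counts in cKO replicates 1 to 4. The 35 counts of cKO replicate 4 are 0.832 CPM, while a count of 0 in a WT library allows up to 0.0833 CPM (3 counts, in WT replicate 3). That library held 35 of the 40 cKO counts. The two-sided exact permutation test gave p = 0.0571. With the count filter removed, edgeR's log2 fold change for Il12b was 4.61 ± 1.47 (SE), with an adjusted p of 0.159.

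Il17ra, the receptor subunit common to IL-17A, IL-17F and IL-17C, was even over the libraries. It stood at 23.9, 23.5, 27.4 and 24.8 CPM in WT replicates 1 to 4 and at 21.7, 23.0, 22.4 and 19.9 CPM in cKO replicates 1 to 4. Every cKO library lay below every WT library, by as little as the gap between 23.0 and 23.5 CPM. Among tested genes 11.1% had groups that did not overlap, 5.83% with WT above, so 1 member of 7 is near the background. The log2 fold change was -0.19 ± 0.09 (SE; edgeR adjusted p = 0.312), and the interval reached from 0.754 to 1.01 times the WT level.

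Il17rc, its partner for IL-17A and IL-17F, stood at 165, 174, 155 and 165 CPM in WT replicates 1 to 4. In cKO replicates 1 to 4 it stood at 117, 183, 128 and 111 CPM. Of the cKO libraries 3 lay below all WT libraries and cKO replicate 2 lay above them. The log2 fold change was -0.29 ± 0.16 (SE; edgeR adjusted p = 0.353). Without cKO replicate 2 it was -0.46 with an edgeR adjusted p of 0.0374, the only fit that called a member.

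Il23r, the IL-23-specific receptor chain of lymphocytes, stood at 0.314, 0.553, 1.08 and 1.71 CPM in WT replicates 1 to 4 and at 0.442, 0.168, 0.747 and 0.119 CPM in cKO replicates 1 to 4. Its 2 highest libraries were again WT replicates 4 and 3, and its 2 lowest were cKO replicates 4 and 2. The log2 fold change was -1.30 ± 0.68 (SE; edgeR adjusted p = 0.341), and -0.81 without WT replicate 4.

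Ccr6, the receptor for the chemokine CCL20, was the tested member with a positive log2 fold change. It stood at 0.419, 0.221, 0.638 and 1.74 CPM in WT replicates 1 to 4 and at 2.24, 1.09, 1.78 and 0.880 CPM in cKO replicates 1 to 4. All cKO libraries exceeded WT replicates 1 to 3, and WT replicate 4 lay among them. The log2 fold change was 0.99 ± 0.60 (SE; edgeR adjusted p = 0.413), and 1.80 without WT replicate 4 (adjusted p = 0.171).

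**Figure D2:**
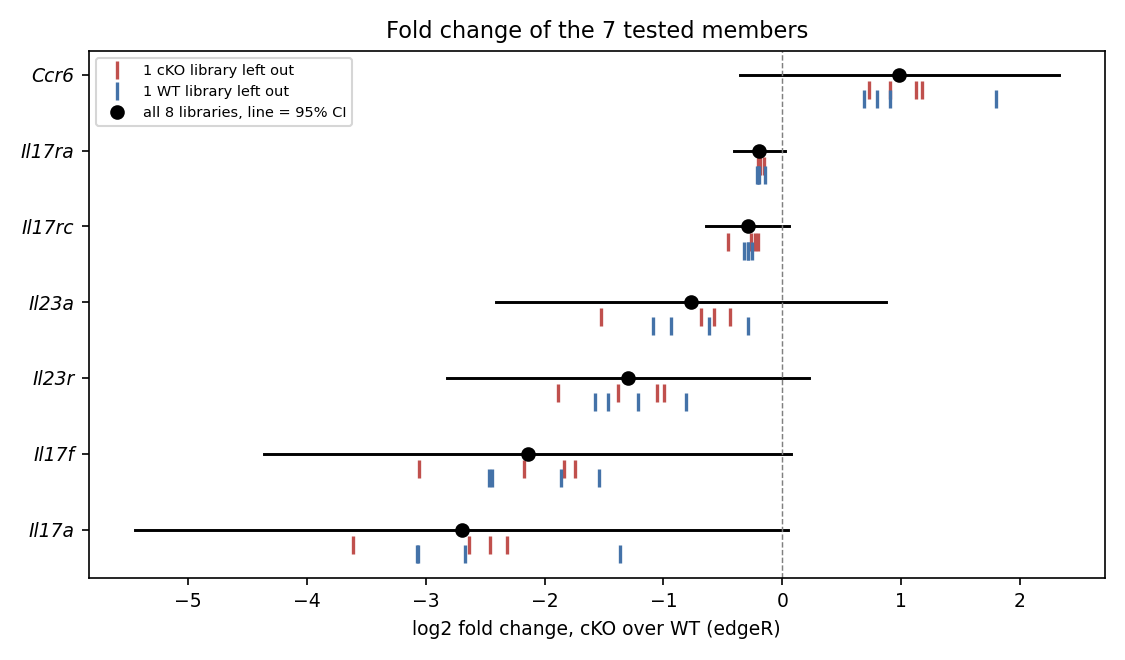
Log2 fold change of cKO over WT for the 7 tested members, with the value over all 8 libraries as a black point, its 95% confidence interval as a line, and the values with 1 library left out as ticks (red for a cKO, blue for a WT library). All 7 intervals include 0, and the interval of Il17a is the widest, from -5.45 to 0.05.

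In all, 5 relations between members over the 8 libraries were computed on log2(CPM + 0.1), with exact permutation p-values adjusted over the 5. Il17a and Il17f varied together (Pearson r = 0.940, exact adjusted p = 0.00161; Spearman rho = 0.905, exact adjusted p = 0.0181). Pearson r was 0.858 without WT replicates 3 and 4, the libraries farthest from the median of Il17a. For Il17a and Il23a the values over all libraries also passed (r = 0.838, exact adjusted p = 0.0251; rho = 0.881, exact adjusted p = 0.0181), with r = 0.610 without those libraries. For Il17a and Il23r r was 0.692 (exact adjusted p = 0.0988; rho = 0.571, exact adjusted p = 0.252), and it was 0.160 without them, so it rests on those 2 libraries. Il17a and Ccr6 (r = 0.230, exact adjusted p = 0.675; rho = 0.310, exact adjusted p = 0.462) and Il23a and Il12b (r = 0.232, exact adjusted p = 0.675; rho = -0.439, exact adjusted p = 0.349) showed no relation that passed. Without the 2 libraries farthest from the median of the first gene of each pair, r was 0.445 and 0.456. For Il23a and Il12b these were cKO replicate 2 and WT replicate 3. The library with 35 Il12b counts, cKO replicate 4, stayed in. With each genotype centred on its mean and permuted within genotypes, a calculation added after seeing the data, r was 0.943 for Il17a and Il17f (exact adjusted p = 0.0260). It was 0.816 for Il17a and Il23a (exact adjusted p = 0.104), which did not pass. For the other pairs the centred r was 0.610 (Il23r), 0.664 (Ccr6) and 0.515 (Il23a and Il12b), with exact adjusted p-values of 0.200, 0.200 and 0.250. Genes whose pattern was most like that of Il17a over the 8 libraries, among 12298 compared, were Rnase2b (r = 0.963), Ercc8 (0.959), Pde5a (0.958), Cacnb4 (0.957) and Ptpn23 (0.955), as a description.

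The level of T cell markers is given beside the lymphocyte cytokines, and its part in their values was not tested. In bulk tissue, fewer cells of a type and less RNA per cell cannot be told apart. The 7 of 11 listed T cell markers in the table, among them Cd3g and Cd247 of the T cell receptor complex, summed to 21.4, 16.8, 43.9 and 65.1 CPM in WT replicates 1 to 4. In cKO replicates 1 to 4 they summed to 26.6, 32.6, 37.6 and 13.6 CPM. WT replicates 3 and 4 thus had the highest sums, while cKO replicates 2 and 3 came next and had the lowest sums of Il17a and Il17f. Blk, a kinase of IL-17-producing gamma delta T cells, stood at 11.1 and 16.5 CPM in WT replicates 3 and 4 and at 1.91 to 6.29 CPM in the other 6 libraries. Only 2 of 13 listed gamma delta markers were in the table, and the other, Sox13, ran from 4.93 to 9.43 CPM over all 8.

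Summed Il17a and Il17f CPM was 8.22%, 11.8%, 67.9% and 25.0% of the T cell marker sum in WT replicates 1 to 4. It was 22.1%, 0.773%, 2.63% and 18.2% in cKO replicates 1 to 4. The groups overlapped, with cKO replicates 2 and 3 lowest and WT replicate 3 highest. On the log2 scale with 0.1 CPM added to the cytokines, cKO minus WT was -1.78 (two-sided exact permutation p = 0.229). The marker sum itself differed by -0.30 (exact permutation p = 0.629). Its members did not all point one way: 5 of 7 had a negative log2 fold change, while Cd2 (1.79 ± 0.70, edgeR adjusted p = 0.212) and Lck (adjusted p = 0.0545), named after their values were seen, were positive. Cd2, an adhesion receptor of T and NK cells, stood higher in 3 of 4 cKO libraries than in every WT library, and Lck in all 4.

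**Figure D3:**
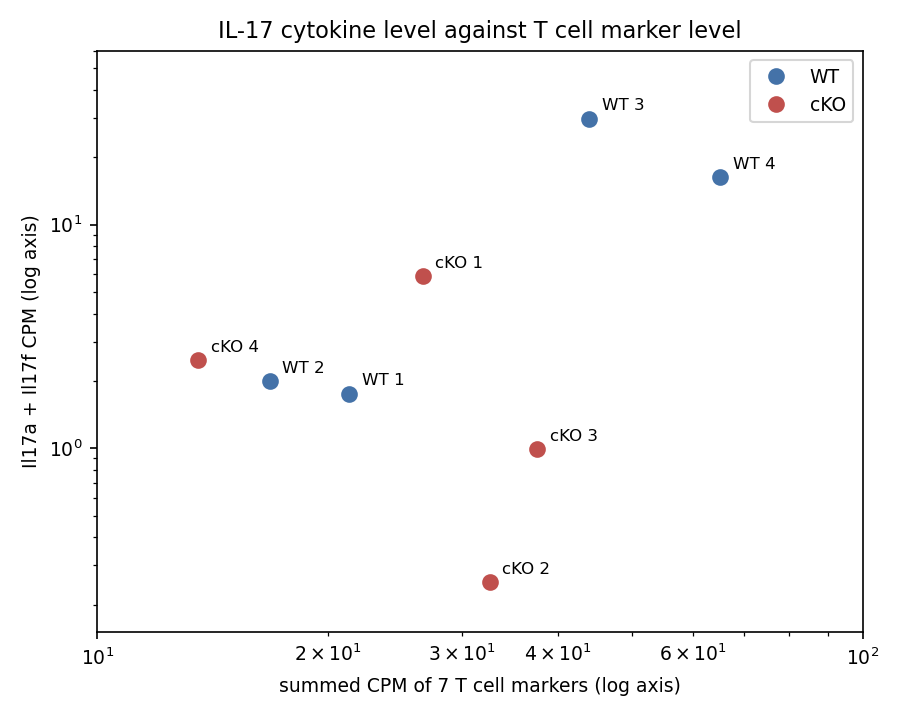
Summed Il17a and Il17f CPM against the summed CPM of 7 T cell markers, both on log axes, 1 point per library (WT blue, cKO red). WT replicates 3 and 4 lie at the upper right, and cKO replicates 2 and 3 have marker sums of 32.6 and 37.6 CPM with the lowest cytokine levels, 0.252 and 0.988 CPM.

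Other genes of the axis were taken from 7 lists. For comparison, 18.6% of all tested genes had an unadjusted p below 0.05 and 48.1% a negative log2 fold change. Of all tested genes, edgeR called 1.32%, DESeq2 8.63% and limma-voom 1.21%. Among 21 tested type 17 lymphocyte genes outside the members, 1 rose and none fell (10 positive, 11 negative, median log2 fold change -0.06). It was Zbtb16, encoding the transcription factor PLZF of innate-like lymphocytes, which epithelial cells also transcribe. Zbtb16 stood at 2.43 to 5.21 CPM in WT and at 7.42 to 21.6 CPM in cKO (log2 fold change 2.08 ± 0.36 SE, edgeR adjusted p = 0.0337). Its call was lost without cKO replicate 1 or 3 or any WT library, with edgeR adjusted p-values of up to 0.108. It was also lost with the replicate block (adjusted p = 0.0679), with limma-voom (0.0540) and on log2(FPKM + 1) (0.0598, log2 fold change 0.99). The most abundant of the list, Rora, Maf and Ahr, are transcription factors that keratinocytes also transcribe, and did not pass (log2 fold changes 0.32 ± 0.38, -0.85 ± 0.36 and 0.63 ± 0.21; edgeR adjusted p = 0.706, 0.243 and 0.162).

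Of 6 tested genes of IL-12 and IL-23 ligands, receptors and signalling, none was called by edgeR (2 positive, 4 negative, median -0.20), with 3 at an unadjusted p below 0.05. DESeq2, with 8.63% of all genes called, called 3 of these (Il12rb2, Jak2 and Stat3) and limma-voom 0. Of these 3, Il12rb2, named after its values were seen, was the one higher in cKO (1.92 ± 0.66, edgeR adjusted p = 0.166). Its 6.72 and 12.6 CPM in cKO replicates 2 and 3 stood above the WT range of 1.19 to 1.78 CPM. In cKO replicates 1 and 4 Il12rb2 lay inside that range, at 1.69 and 1.36 CPM. Stat3, which carries the IL-23 signal to the nucleus and is active in keratinocytes too, stood at 255 to 300.1 CPM in WT and 197 to 223 CPM in cKO without overlap (log2 fold change -0.39 ± 0.09 SE, edgeR adjusted p = 0.0685). Jak2, the kinase bound to the IL-23 receptor, stood at 33.3 to 55.6 CPM in WT and 26.9 to 29.1 CPM in cKO, also without overlap (-0.69 ± 0.15, edgeR adjusted p = 0.0552). Its partner kinase Tyk2 was at -0.02 ± 0.10 (edgeR adjusted p = 0.931).

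Of 3 other IL-17 family ligands 2 were tested and neither was called by edgeR, with 1 at an unadjusted p below 0.05 and 0 by DESeq2 or limma-voom (median -0.13). Il17d was at -0.93 ± 0.36 (SE; edgeR adjusted p = 0.209) and Il17b at 0.67 ± 0.79 (adjusted p = 0.697). Il25, or IL-17E, did not pass the count filter. It was at 0 in all WT libraries and at 0.0280 to 0.234 CPM in cKO, from 9, 1, 7 and 7 counts in cKO replicates 1 to 4. None of the 3 other receptor genes was called by any of the 3 tools or at an unadjusted p below 0.05 (median 0.23). Il17re, the partner of IL-17RA for IL-17C, stood at 13.7 to 19.3 CPM in cKO and 11.2 to 15.7 CPM in WT (0.23 ± 0.15, edgeR adjusted p = 0.447). Il17rb was at -0.29 ± 0.46 (adjusted p = 0.789) and Il17rd at 0.38 ± 0.37 (adjusted p = 0.628).

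None of 19 genes of IL-17 receptor signalling was called by edgeR, DESeq2 or limma-voom (6 positive, 13 negative, median -0.13), with 4 at an unadjusted p below 0.05. The most abundant were Cebpb, a transcription factor of the IL-17 response (0.02 ± 0.13 SE, edgeR adjusted p = 0.967), the kinase subunit gene Csnk2a1 (0.20 ± 0.08, adjusted p = 0.236) and the deubiquitinase gene Usp25 (-0.33 ± 0.13, adjusted p = 0.205). Of 5 tested inducers of type 17 cytokines none was called by edgeR or limma-voom and 1, Il1a, by DESeq2. Of these 5 genes 3 were positive and 2 negative (median 0.87), with 3 at an unadjusted p below 0.05. The 3 were Il1a, Il1b and Ccl20, and Ccl20 is also on the list of IL-17 targets below. Il1a, an alarmin of keratinocytes, stood at 28.8 to 81.2 CPM in cKO and 13.6 to 34.1 CPM in WT (1.26 ± 0.37, edgeR adjusted p = 0.117). Il1b, named after its values were seen, was lower in cKO by its fold change without passing (-1.28 ± 0.49, edgeR adjusted p = 0.206). It stood at 1.45 to 3.82 CPM in cKO and 2.86 to 13.7 CPM in WT, with overlap. Il18 (0.87 ± 0.44, adjusted p = 0.330) and Tgfb1 (-0.18 ± 0.19, adjusted p = 0.655) did not pass.

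Of 18 tested keratinocyte targets of IL-17, edgeR and limma-voom called none. DESeq2 called 2 (Cxcl2 and Il19), with 8.63% of all tested genes called. An unadjusted edgeR p below 0.05 was found for 7 of the 18, against 18.6% of all tested genes. Of the 18 targets 15 were negative and 3 positive, where 48.1% of all tested genes were negative. The median log2 fold change was -0.68, against 0.01 for all tested genes. The alarmin subunit gene S100a9 stood at 2366, 1944, 8031 and 9653 CPM in WT replicates 1 to 4 and at 3949, 888, 691 and 5695 CPM in cKO replicates 1 to 4. WT replicates 3 and 4 were highest and cKO replicates 2 and 3 lowest, as for Il17f. S100a9 did not pass (-0.97 ± 0.75, edgeR adjusted p = 0.528), nor did its partner S100a8 (-1.03 ± 0.62, adjusted p = 0.413) or Il36g, an IL-1 family cytokine of keratinocytes (0.34 ± 0.18, adjusted p = 0.359).

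A pair of targets, chosen after their values were seen, were instead high in the libraries with high Il17c. Ccl20, the ligand of CCR6, stood at 28.9, 5.01, 6.32 and 42.4 CPM in cKO replicates 1 to 4 and at 3.62, 2.13, 12.0 and 2.65 CPM in WT replicates 1 to 4 (2.02 ± 0.79, edgeR adjusted p = 0.214). Defb4, a β-defensin gene, stood at 28.9, 3.53, 0.868 and 48.2 CPM in cKO and at 6.87 to 14.6 CPM in WT (0.95 ± 0.92, adjusted p = 0.625). In both genes cKO replicates 1 and 4 exceeded every WT library, as in Il17c. Il19, also chosen after its values were seen, is an IL-20 family cytokine of keratinocytes and was the tested target with the lowest log2 fold change. It stood at 29.2, 6.94, 63.8 and 45.9 CPM in WT and at 6.26, 2.02, 0.289 and 3.78 CPM in cKO without overlap (-3.56 ± 0.84, edgeR adjusted p = 0.0682). Csf3, encoding the neutrophil growth factor G-CSF and likewise named after its values were seen, did not pass the count filter. It had 7 counts over the cKO libraries and 357 over the WT libraries, at 0.111 to 7.58 CPM in WT and 0 to 0.104 CPM in cKO, and WT replicate 3 was highest.

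**Figure D4:**
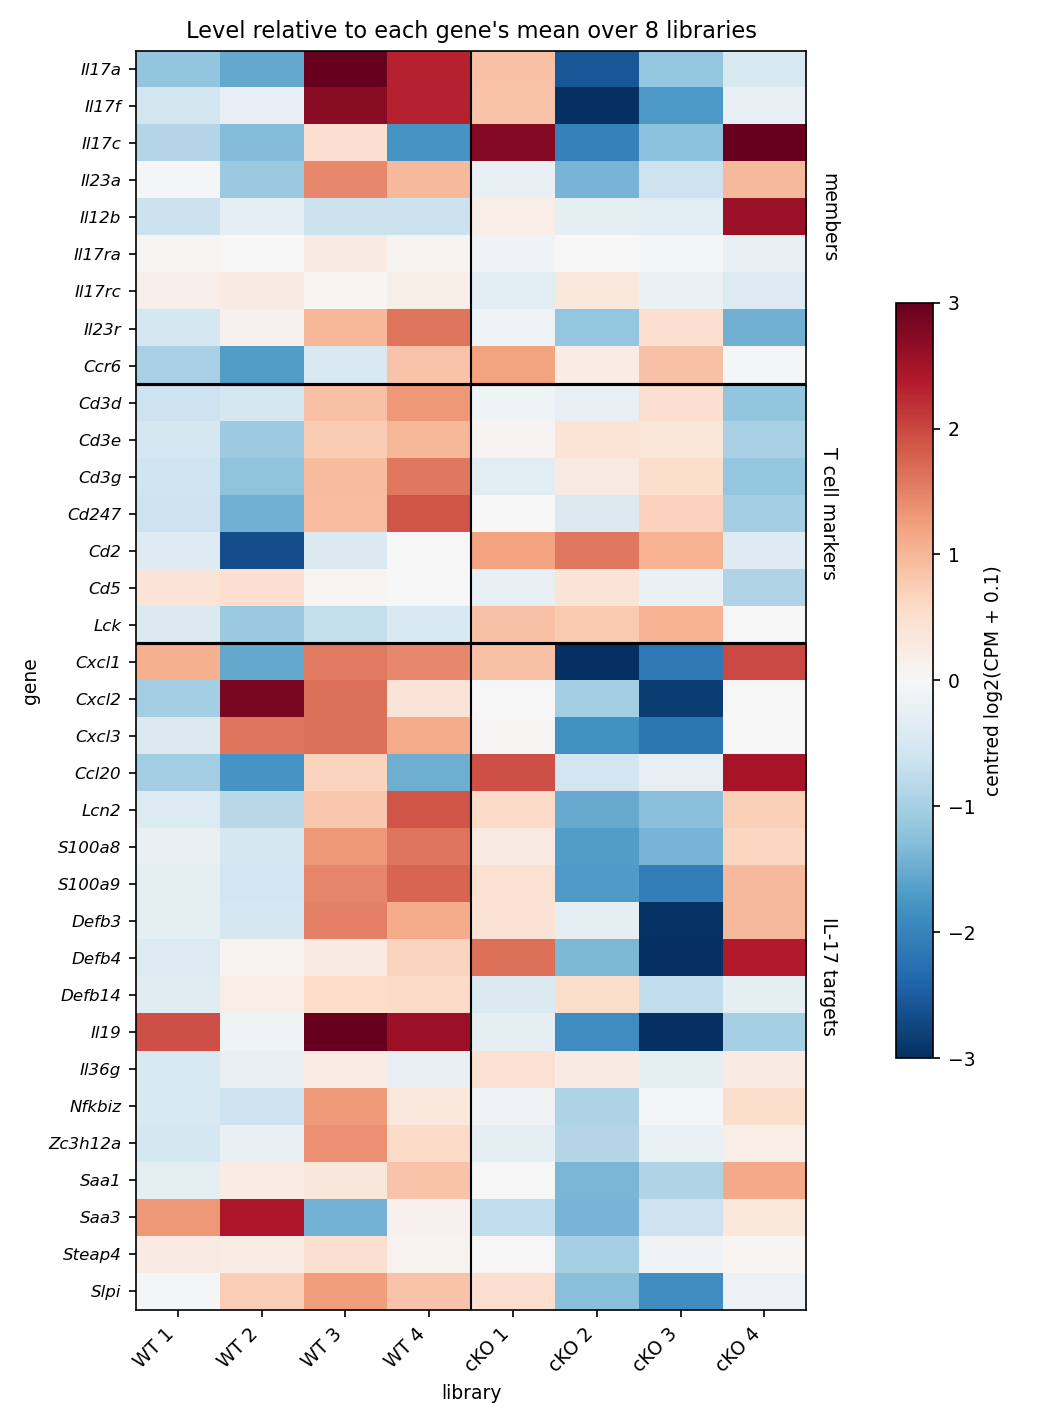
Level of the 9 members, the 7 T cell markers and the 18 tested keratinocyte targets of IL-17 in each library, as log2(CPM + 0.1) minus the gene's mean over the 8 libraries (colours saturate at -3 and 3). Il17a, Il17f, S100a8 and S100a9 are red in WT replicates 3 and 4, and Il17c, Ccl20 and Defb4 are red in cKO replicates 1 and 4. These sets are not exclusive. S100a8 and S100a9 also lie above their means in cKO replicates 1 and 4, Il17a and Il17f in cKO replicate 1, and Ccl20 in WT replicate 3.

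Markers of other cell types that could hold or receive these signals are given as values, and their part in the results was not tested. The 5 neutrophil markers present, Cxcr2 and Retnlg the most abundant, summed to 19.1 to 37.2 CPM in WT and 6.86 to 30.2 CPM in cKO with overlap. Cxcr2 made up most of these sums. Retnlg had 6 counts over the cKO libraries and 239 over WT, of which 220 were in WT replicate 2. Stfa2l1, named after its values were seen, had 19 and 222 counts, with all cKO values below those of WT (edgeR adjusted p = 0.0949). Macrophage and monocyte markers (7 of 7 present, Csf1r and Ccr2 the most abundant) summed to 48.7 to 74.6 CPM in WT and 29.0 to 66.0 CPM in cKO. Langerhans and dendritic cell markers (11 of 11, Epcam and Cd74 the most abundant) summed to 331 to 448 CPM in WT and 298 to 736 CPM in cKO, with cKO replicate 4, the library with Il12b, the lowest. Epcam alone stood at 110 to 202 CPM in WT and 139 to 259 CPM in cKO, with 165 CPM in cKO replicate 4. Cytotoxic and NK markers (8 of 8, Klrd1 and Prf1 the most abundant) summed to 1.55 to 3.13 CPM in WT and 1.76 to 8.62 CPM in cKO. Melanocyte markers (5 of 5, Dct and Tyrp1 the most abundant) summed to 30.2 to 48.8 CPM in WT and 51.1 to 110 CPM in cKO. Melanocyte sums were higher in every cKO library than in WT. B cell, mast cell, endothelial and fibroblast markers summed to at most 1.41, 3.95, 2.20 and 9.92 CPM in any library. The mast cell sum was almost wholly Kit, with 404 counts over cKO and 170 over WT. Each of the other listed mast cell markers had at most 3 counts over cKO and 0 over WT. Outside the CD4 and regulatory T cell list, edgeR and limma-voom called none of the tested markers. Of all tested genes 18.6% had an unadjusted edgeR p below 0.05. That level was reached by 5 of 5 melanocyte, 3 of 10 keratinocyte and 2 of 7 T cell markers (Cd2 and Lck). Also reaching it were 1 of 8 Langerhans and dendritic (Cd207), 1 of 7 macrophage, 1 of 4 cytotoxic and 1 of 3 neutrophil markers. The 1 tested mast cell marker, Kit, reached it as well. It was reached by 0 of 2 gamma delta, 0 of 4 fibroblast, 0 of 1 B cell and 0 of 1 endothelial markers. Outside the CD4 and regulatory T cell list DESeq2 called Lck, Dct, Tyrp1, Mlana and Stfa2l1. Within that list it called Cd4 and Ctla4, and over all tested genes it called 8.63%.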

How the data were processed

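Total RNA of epidermis was sequenced from 4 cKO and 4 WT mice. The authors deposited whole-number read counts per gene symbol, made with HISAT2 and HTSeq per the submitters' processing notes, and an FPKM table of the same genes and libraries. The sources used here give no versions, build, annotation or strand setting, so reads of antisense partners cannot be told apart, and the only coordinates printed are those of RefSeq promoters (GRCm38.p6). Counts were filtered with filterByExpr, scaled with TMM factors and tested with edgeR 4.0.16 (R 4.3.3, limma 3.58.1), cKO against WT with no covariate, adjusted over 14004 genes. CPM are TMM-scaled. The exact permutation test runs over all 70 splits of 4 against 4. FPKM served only to compare levels between genes and in alternative tests. The test was checked on simulated counts. No pair of libraries of the same genotype agreed within sampling noise (lowest chi-square per degree of freedom 47.9). Pairs across genotypes were not compared. The alternatives were DESeq2 1.42.0, limma-voom, other scalings, filters and pseudocounts, the replicate block and each library left out. The members, 7 pathway lists and 13 marker lists were chosen with earlier results of these data known. Besides the members, the text names the 3 most abundant and all called genes of each pathway list, up to 2 and all called of each marker list, and the 5 genes most like Il17a with a mean of at least 0.5 CPM. Other names are said to be chosen after their values were seen.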

Additional observations from a re-analysis of the deposited data

Results flagged for a closer look

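In 2 of 20 groups of 4 libraries, a library lay apart by Dixon's test at the 95% level, and chance gives about 1 in 20. Both groups are of Il12b. In cKO the value of 0.832 CPM in replicate 4 stood above the nearest value of 0.0780 CPM in replicate 1. In WT the value of 0.0276 CPM in replicate 2 is 1 count beside 0 counts in the other libraries. With 3 libraries tied at 0 any count in the fourth is marked, so this mark carries no information.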

How the results depend on the processing

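Of 119 fits of the 7 tested members under alternatives, 118 kept the direction and the side of the threshold, and 1 called Il17rc without cKO replicate 2 (log2 fold change -0.46). The number of members called ran from 0 to 1 with each library left out and was 0 under every other alternative, in fits that tested 4 to 9 members. The number of genes called over the whole table was 185. It was 1208 with DESeq2, 349 without the low-count filter and 692 without cKO replicates 1 and 4, a choice made after seeing the data. It ran from 8 (without WT replicate 3) to 506 (without cKO replicate 2) with 1 library left out. The cytokine level per T cell marker kept its sign, from -2.41 to -0.95 with each library left out. Correlations of same-numbered deviations were -0.11, 0.14, 0.10 and 0.20, with 2 of 4 cKO libraries most like their own number. With so few libraries these values cannot tell whether the replicate numbers pair the libraries. With the replicate block 216 genes and 0 members were called, and the cytokine level per T cell marker was -1.78 (exact permutation p = 0.375). Low counts limit Il12b, Il17c, Il23a, Il23r and Ccr6, whose intervals, where tested, are wide. Il17a and Il17f also had few counts in some libraries, with 4 and 5 in cKO replicate 2, and their intervals are wide too.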

Other observations

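Lymphocyte genes did not all follow the T cell receptor complex. Ctla4, an inhibitory receptor of activated and regulatory T cells, was the called gene among 3 tested CD4 and regulatory T cell markers. It stood at 1.82, 1.01, 0.699 and 0.523 CPM in cKO replicates 1 to 4 and at 0 to 0.0553 CPM in WT, from at most 2 counts per WT library (edgeR log2 fold change 4.77 ± 0.68 SE, with adjusted p = 0.0262). That call was lost without cKO replicate 1 (adjusted p = 0.0509) or any WT library (0.0595 to 0.0868). Il2ra, the IL-2 receptor α chain and the most abundant of these markers, was at 0.35 ± 0.57 (adjusted p = 0.799). The T cell kinase gene Lck and the coreceptor gene Cd4, named after their values were seen, also had all cKO libraries above all WT libraries without passing (edgeR adjusted p = 0.0545 and 0.0582). DESeq2, with 8.63% of all tested genes called, called both. Lck stood at 1.19 to 2.60 CPM in cKO and 0.497 to 0.865 CPM in WT. Over the same libraries Cd3g ran from 3.90 to 12.8 CPM in cKO and from 3.76 to 26.6 CPM in WT, with overlap (log2 fold change -0.63 ± 0.59, adjusted p = 0.612).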
